A study of Mus musculus with 300 samples.

Results

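ENSMUST00000084343_at and ENSMUST00000094887_at, 2 of the 34406 rows of a liver expression table, were the rows with the greatest excess in male over female livers of an F2 intercross. They were chosen by their values in these data, for being over 4 log2 units higher in F2 males than in F2 females, so that contrast is described here and not tested. The animals were 147 F2 males and 135 F2 females from intercrossed (MRL/MpJ x SM/J)F1 mice, with 3 males and 3 females each of that F1 generation, of MRL/MpJ (MRL) and of SM/J (SM). In the cross the SM parent was the father. All mice were 13 weeks old, ate a chow diet, received no treatment, and were housed alone for 3 days and fasted before the liver was taken. Each array holds the liver RNA of 1 mouse. MRL, SM and F1 animals of a group share a genotype, while F2 animals carry new combinations of the parental alleles. Their genotypes were not used here.

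The liver is an organ in which many transcripts differ between males and females of the mouse. Much of this difference is set by the pattern of growth hormone secretion, which is pulsed in males and nearly continuous in females, and which reaches hepatocytes through the growth hormone receptor, JAK2 and the transcription factor STAT5b. Male-high and female-high liver transcripts include cytochromes P450, sulfotransferases and secreted urinary proteins. The files and the gene table used here pair neither row with a gene, so no name, genome position or role is given to them, no sequence is shown, and the liver label was not checked against marker genes.

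Values are log2 expression made by RMA, where 1 unit is a doubling. The lowest value in the table was 4.66 and there is no detection call, so a low female level cannot be told from background. In whole liver, fewer cells that make a transcript and less of it per cell cannot be told apart.

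The sex label of each library was compared with a score made from 114 other rows, 60 male-high and 54 female-high, that differed by over 1 log2 unit without overlap between male and female MRL and SM animals. The score averages 1 in male and -1 in female parental animals. The library labelled F1 male 1146 scored -0.91, with 109 of the 114 rows nearer the female level, against 0.91 and 0.95 in the other F1 males. It is kept under its label, and each result that rests on it is given with and without it. Scores between -0.6 and 0.5 were found in 4 F2 males and 6 F2 females. These bounds were not fixed in the plan, and female 2231 lay just inside them at -0.60. All other F2 males scored from 0.57 to 1.19 and all other F2 females from -1.50 to -0.64.

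ENSMUST00000084343_at was high in males. Its SD in F2 males, 0.18 log2 units, was greater than that of 90.6% of all rows. In F2 males its lowest, median and highest levels were 10.73, 11.25 and 11.57 log2 units, and in F2 females 5.15, 5.99 and 10.89. A single F2 female, 2116, lay above the lowest F2 male, and the next female, 2295, stood at 10.10. The fitted F2 difference was 4.89 ± 0.08 log2 units (SE, with batch in the fit), or 29.7-fold.

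ENSMUST00000094887_at was spread more widely in males. Its lowest, median and highest levels were 8.56, 10.21 and 11.15 in F2 males and 5.10, 5.67 and 9.87 in F2 females. The highest female was again 2116, and without that animal the sexes were 1.27 log2 units apart at their nearest, with the second female at 7.28. The fitted difference was 4.30 ± 0.07 log2 units (SE), or 19.7-fold. The members were 2 of 34406 rows past 4 log2 units (0.00581%), and the next row, just outside the rule, differed by 3.98.

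The F2 difference was present in each of the 13 batches with both sexes, which held at least 5 males and 6 females each. It ranged over batches from 4.43 to 5.35 log2 units for ENSMUST00000084343_at and from 3.90 to 4.56 for ENSMUST00000094887_at. The lowest value of ENSMUST00000094887_at was in batch 10, which holds the females 2116 and 2295.

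**Figure D1:**
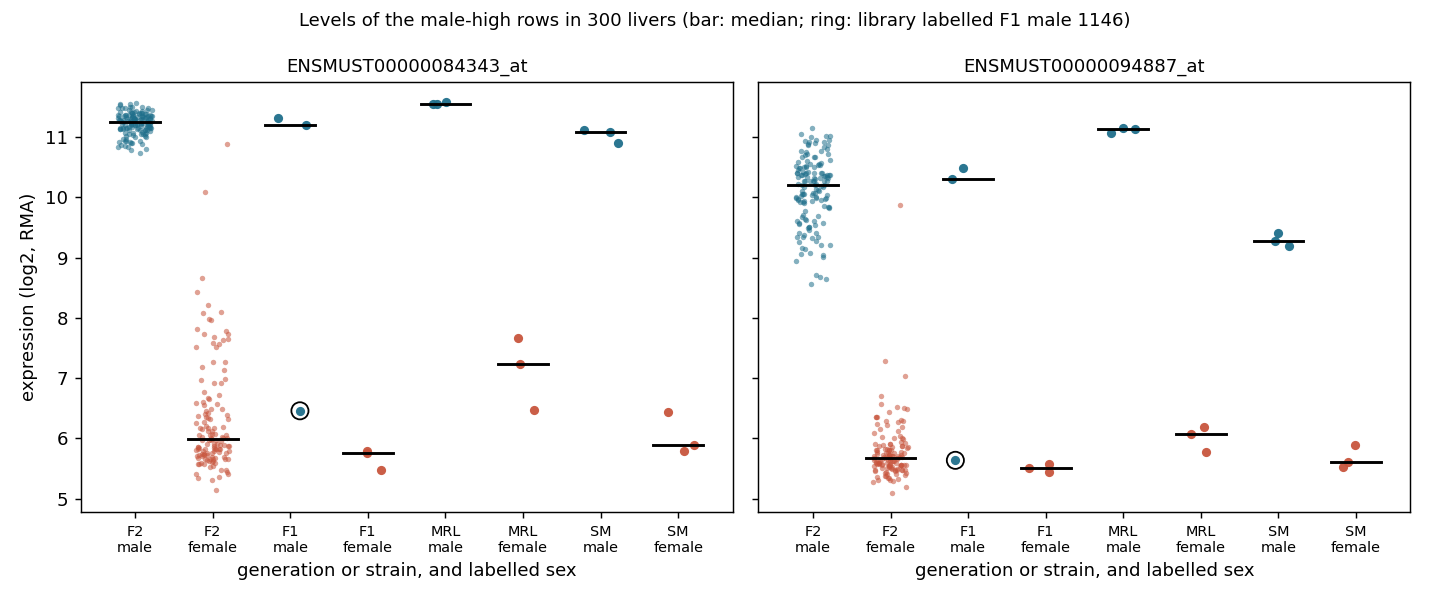
Level of each row (log2, RMA) in every library, by generation or strain and labelled sex, with bars at group medians and a ring around the library labelled F1 male 1146. All males other than the ringed library lie above 8.5 for both rows, and F2 females of ENSMUST00000084343_at run from 5.15 to 10.89.

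The sex difference was tested in the 18 MRL, SM and F1 animals, which the choice of rows did not use. For ENSMUST00000084343_at, F1 males had 11.20, 11.31 and 6.46 (the library labelled 1146) log2 units, against 5.75, 5.79 and 5.48 in F1 females. MRL males had 11.55, 11.59 and 11.54, against 7.24, 7.67 and 6.47 in MRL females. SM males had 10.90, 11.11 and 11.09, against 6.44, 5.79 and 5.90 in SM females. Within each strain the sexes did not overlap. Library 1146, at 6.46, lay above the F1 females but below every MRL female.

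For ENSMUST00000094887_at, F1 males had 10.49, 10.31 and 5.64 (1146) log2 units, against 5.51, 5.58 and 5.43 in F1 females. MRL males had 11.07, 11.13 and 11.15, against 6.07, 6.19 and 5.78 in MRL females. SM males had 9.41, 9.27 and 9.19, against 5.89, 5.60 and 5.52 in SM females. At both rows library 1146 lay among the female levels. On a scale with 0 at the F2 female and 1 at the F2 male median it stood at 0.088 for ENSMUST00000084343_at and at -0.0087 for ENSMUST00000094887_at.

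Over MRL, SM and F1, males exceeded females by 4.47 ± 0.45 log2 units (SE, limma adjusted p 9.4e-06) for ENSMUST00000084343_at and by 4.01 ± 0.44 (SE, limma adjusted p 1.5e-05) for ENSMUST00000094887_at. In this comparison 4.94% of all rows were called higher in males. Without library 1146 the differences were 5.00 ± 0.13 and 4.54 ± 0.06 (SE, adjusted p 4.48e-15 and 5.77e-19), and 5.53% of rows were called higher. In batch 7, the one batch with both sexes of one strain, the SM male exceeded the SM female by 5.11 and 3.81 log2 units.

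The strain comparison set MRL males against SM males. ENSMUST00000094887_at averaged 11.12 ± 0.04 log2 units in MRL males and 9.29 ± 0.11 in SM males (SD, n = 3 each), and the strains did not overlap. ENSMUST00000084343_at averaged 11.56 ± 0.02 in MRL males and 11.04 ± 0.12 in SM males (SD, n = 3 each), again without overlap. The differences were 1.83 for ENSMUST00000094887_at and 0.52 for ENSMUST00000084343_at.

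In the fit of all 18 animals neither difference passed (limma adjusted p 0.176 and 0.742), while 4.69% of rows were called higher in MRL males. The pooled spread of that fit includes library 1146, which raises the residual SD of ENSMUST00000094887_at to 1.13, against 0.14 without it. Without 1146, ENSMUST00000094887_at was higher in MRL males by 1.83 ± 0.10 (SE, adjusted p 7.56e-09, 5.16% of rows called higher), and ENSMUST00000084343_at, at 0.52 ± 0.21 (SE), did not pass (adjusted p 0.154). With only the MRL and SM males in the fit both passed, with limma adjusted p of 2.78e-07 and 0.0013. MRL and SM males shared batches 1 and 2, where the MRL excess was 1.88 and 1.87 for ENSMUST00000094887_at and 0.46 and 0.45 for ENSMUST00000084343_at.

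MRL females were then set against SM females. ENSMUST00000084343_at averaged 7.13 ± 0.61 log2 units in MRL females and 6.04 ± 0.35 in SM females (SD, n = 3 each), and all MRL values lay above all SM values. ENSMUST00000094887_at averaged 6.01 ± 0.21 in MRL females and 5.67 ± 0.20 in SM females (SD, n = 3 each), with overlap. With all 18 animals neither passed (limma adjusted p 0.424 and 0.813, 3.37% of rows called higher). Without library 1146, MRL females were higher by 1.08 ± 0.21 for ENSMUST00000084343_at (adjusted p 0.0032) and by 0.34 ± 0.10 for ENSMUST00000094887_at (adjusted p 0.047), where 3.63% of rows were called higher. With only the MRL and SM females in the fit, ENSMUST00000084343_at passed (limma adjusted p 0.038) and ENSMUST00000094887_at did not (0.117). In a fit that added the F2 animals and batch, again without 1146, neither passed (adjusted p 0.211 and 0.597). The error of that fit includes the F2 spread. In females the F2 variance was 4.91 and 8.43 times that within the F1, MRL and SM groups. With batch effects estimated in F2 subtracted from the MRL, SM and F1 animals, and 1146 left out, both passed. In batch 7, the only one shared by the strains in females, the MRL animal was higher by 0.68 and 0.18.

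Whether the strain difference depended on sex was tested as the male minus the female difference. Low female levels cannot be told from background, and whether this limits the female strain difference was not tested. For ENSMUST00000094887_at it was 1.48 ± 1.08 log2 units (SE, limma adjusted p 0.406) with all 18 animals, where 0.131% of rows were called higher. Without library 1146 it was 1.48 ± 0.15 (adjusted p 5.28e-05, 0.363% of rows called higher). With the F2 animals and batch added to that fit, so that its error includes the F2 spread, it was 1.37 ± 0.61 (adjusted p 0.372). For ENSMUST00000084343_at the value was -0.56 ± 1.11 with all 18 animals (adjusted p 0.779) and -0.56 ± 0.30 without 1146 (adjusted p 0.256, 95% interval -1.18 to 0.06). No setting that kept 1146 called it for either row.

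F1 males, without library 1146, stood between the parents. Their levels of ENSMUST00000094887_at averaged 10.40 log2 units, at 0.60 of the way from SM to MRL males, and those of ENSMUST00000084343_at averaged 11.25, at 0.42 of the way. With 1146 the F1 means were 8.81 and 9.65, below the SM males at both rows (positions -0.26 and -2.64). For ENSMUST00000094887_at, F1 males minus the parental mean was -1.40 ± 0.66 log2 units (SE) with 1146 (limma adjusted p 0.643) and 0.19 ± 0.10 without it (adjusted p 0.638). For ENSMUST00000084343_at it was -1.64 ± 0.68 with 1146 (limma adjusted p 0.617) and -0.04 ± 0.21 without it (adjusted p 0.961). The share of all rows called was 0.0262% with 1146 and 0.0145% without.

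F1 females were low at both rows. The highest F1 female of ENSMUST00000084343_at, at 5.785, lay just under the lowest parental female, at 5.788, and for ENSMUST00000094887_at F1 and SM females overlapped. F1 females differed from the parental mean by -0.91 ± 0.68 (SE) for ENSMUST00000084343_at and -0.33 ± 0.66 for ENSMUST00000094887_at, with limma adjusted p of 0.367 and 0.746 (1.42% of rows called lower). Without library 1146 both passed as lower (-0.91 ± 0.18, adjusted p 0.0239, and -0.33 ± 0.09, adjusted p 0.0456), where 2.1% of rows were called lower. With batch effects estimated in F2 also subtracted, neither passed (adjusted p 0.0514 and 0.0612).

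In F2 males ENSMUST00000094887_at filled the interval between the parental strains. Of 147 males, 125 lay above the highest SM and below the lowest MRL male, 21 lay at or below the highest SM male and 1 lay at or above the lowest MRL male. None was above the highest MRL male, and 11 were below the lowest SM male. The nearest mean level was that of MRL for 18 males (12.2%), of the 2 other F1 males for 88 (59.9%) and of SM for 41 (27.9%). With 1146 in the F1 mean these counts were 76, 7 and 64. The F2 SD of 0.57 compares with 0.095 within the F1, MRL and SM males without 1146 (8 animals), a variance ratio of 36.2. With 1146 the order turned, since the SD within those groups was then 1.59 and the ratio 0.129. By SD in F2 males it ranked 64 of all rows.

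ENSMUST00000084343_at had an SD of 0.18 in F2 males, against 0.08 within the F1, MRL and SM males without 1146 and 1.601 with it, so here too the order turned with that library. Its 147 levels gave 112 between the parental ranges, 32 at or below the highest SM male and 3 at or above the lowest MRL male. By nearest mean level 19 went with MRL, 86 with F1 and 42 with SM without 1146, and 56, 0 and 91 with it. At this row too, most F2 males lay between the parental ranges and none was above the highest MRL male.

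**Figure D2:**
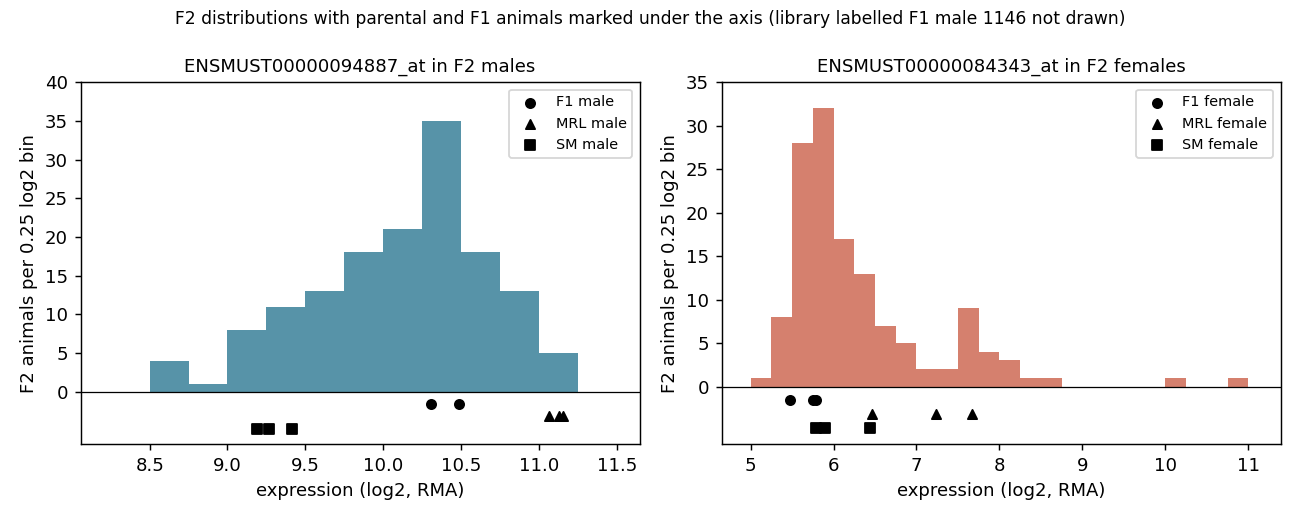
Number of F2 animals per 0.25 log2 units for ENSMUST00000094887_at in males (left) and ENSMUST00000084343_at in females (right), with the single same-sex F1, MRL and SM livers as marks under the axis. The male distribution is highest between 10 and 10.5 and ends near the MRL marks, and the female one has a main peak under 6.5 and a smaller group from 7.5 upward.

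In F2 females the spread of ENSMUST00000084343_at was among the greatest on the array. Its SD was 0.92 log2 units, rank 11 of 34406 rows, and 0.73, rank 24, without the 6 females whose sex score lay between. The levels were skewed upward: 99 of 135 females were below 6.5, 4 lay between 7 and 7.5, and 20 (14.8%) were at 7.5 or above, a bound chosen after the values were seen. These 20 came from 12 batches, and 5 of them were among the 6 with a score between. Batches took 7.92% of the variance, against a median of 13.9% over all rows.

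Set against the parents, 38 of 135 F2 females were at or above the lowest MRL female at this row and 14 were above the highest, while 41 were below the lowest SM female. The F2 variance was 4.91 times that within the F1, MRL and SM females.

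ENSMUST00000094887_at had an SD of 0.50 in F2 females, rank 98 of all rows, and 0.32, rank 411, without the 6 females. Its quartiles were 5.53 and 5.88. Above 7 lay 3 females, 2283 at 7.03, 2295 at 7.28 and 2116 at 9.87.

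The 2 rows covaried within each sex. Pearson's r was 0.84 in F2 males (Spearman's rho 0.85, n = 147) and 0.83 in F2 females (rho 0.60, n = 135). The permutation p was 1e-05 for each, the smallest that 100000 resamples give, and 2.5e-05 after adjustment over the 10 relations computed. Without the 2 animals farthest from the median of ENSMUST00000094887_at, r was 0.84 in males and 0.80 in females. The difference between the sexes was 0.01 (permutation p 0.789), and 0.08 without the libraries whose score lay between (r 0.86 in males and 0.78 in females, permutation p 0.0498). Within batches of at least 6 animals r was positive in 12 of 12 for males (0.79 to 0.97) and in 12 of 13 for females (-0.07 to 0.93).

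In males ENSMUST00000084343_at changed by 0.26 log2 units per unit of ENSMUST00000094887_at, and in females by 1.53, as values with no test of their difference.

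**Figure D3:**
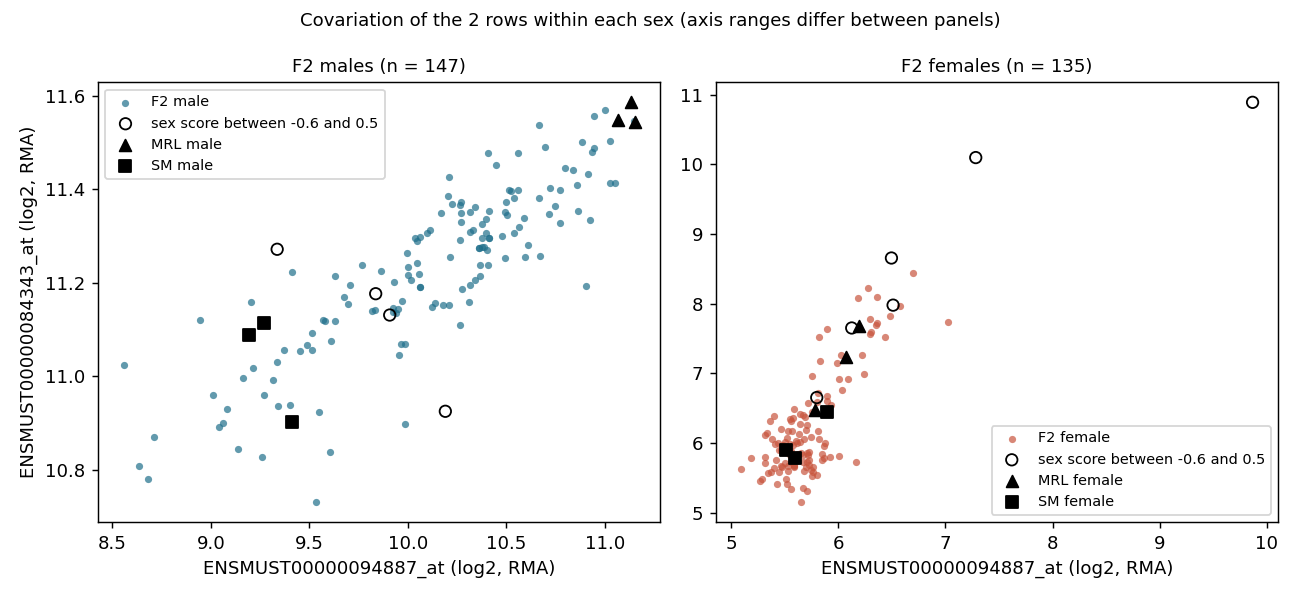
ENSMUST00000084343_at against ENSMUST00000094887_at (log2, RMA) in F2 males (left) and F2 females (right), with MRL and SM animals as black marks and open circles for libraries with a sex score between -0.6 and 0.5. MRL males lie at the upper right end and SM males at the lower left of the male cloud, and most females form a dense cluster with a tail toward high values.

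Within F2 females both rows followed the sex score of the other rows. ENSMUST00000084343_at correlated with it at r = 0.79 (rho 0.69, n = 135) and ENSMUST00000094887_at at r = 0.62 (rho 0.48), each with a permutation p of 1e-05, the smallest possible (2.5e-05 adjusted). Without the 6 females with a score between, r was 0.68 and 0.48 (n = 129). Without the 2 farthest scores it was 0.72 and 0.53. Within batches the first was positive in 13 of 13 (0.37 to 0.93) and the second in 12 of 13 (-0.35 to 0.82).

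In F2 males ENSMUST00000094887_at correlated with the score at r = 0.27 (n = 147, permutation p 0.00087, adjusted 0.00145; rho 0.31, permutation p 8e-05), positive in 10 of 12 batches, and at 0.32 without the 2 farthest scores. For ENSMUST00000084343_at r was 0.16 (permutation p 0.0567, adjusted 0.0659; rho 0.14, permutation p 0.0939) and 0.10 without the 2 farthest, positive in 8 of 12 batches. Within batches r in males ran from -0.70 to 0.65 for ENSMUST00000094887_at and from -0.71 to 0.53 for ENSMUST00000084343_at. Whether the relations differ between the sexes was not tested.

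A property of the arrays moved with one of these levels. The SD over all rows of an array correlated with ENSMUST00000084343_at in F2 males at r = 0.30 (permutation p 2e-04, adjusted 4e-04; rho 0.26, permutation p 0.00202), positive in 8 of 12 batches, and at 0.25 without the 2 farthest arrays. For ENSMUST00000094887_at in males r was 0.16 (permutation p 0.0593, adjusted 0.0659; rho 0.13, permutation p 0.109), positive in 7 of 12 batches. In females r was -0.05 for ENSMUST00000084343_at (rho 0.04, adjusted permutation p 0.591) and -0.18 for ENSMUST00000094887_at (rho -0.13, adjusted permutation p 0.0504). With the slope on the array SD subtracted, the rows correlated with each other at 0.84 in males and 0.84 in females.

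The libraries between the sexes were not between at both rows alike. Positions are again 0 at the F2 female and 1 at the F2 male median. Female 2116, with a score of -0.13, had levels of 10.89 and 9.87, at positions 0.93 and 0.92, within the male range at both rows. Female 2295, with a score of -0.10, stood at 10.10 and 7.28, positions 0.78 and 0.35. Female 2122, with -0.39, stood at 8.65 and 6.497, positions 0.51 and 0.18.

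Females 2293, 2271 and 2231 scored -0.45, -0.56 and -0.60. Their levels of ENSMUST00000084343_at were 7.65, 7.98 and 6.65, all nearer the female median. Male 2308, with a score of -0.13, had 10.93 and 10.19, positions 0.94 and 1.00. Both rows were thus at the male level, while 59 of the 114 rows of the score lay nearer the female level in that library. Males 2328, 2274 and 2175, with scores of 0.48, 0.49 and 0.49, had positions of 0.986, 0.977 and 1.00 for ENSMUST00000084343_at and of 0.918, 0.933 and 0.807 for ENSMUST00000094887_at. Batch 10 held 2116, 2295 and 2308, the libraries with scores nearest 0.

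Positions between 0.25 and 0.75 were found for ENSMUST00000084343_at in 18 F2 females and no F2 male, and in MRL female 2, at 0.32. For ENSMUST00000094887_at they were found in 2 F2 females (2283, at 0.30, and 2295) and in 8 F2 males, from 0.64 (2265) to 0.75 (2056). Those 8 males had sex scores of 0.60 to 0.99, in the range of the other males. Past the midpoint toward the other sex lay females 2116, 2295 and 2122 for the first row, female 2116 for the second, and library 1146 for both.

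**Figure D4:**
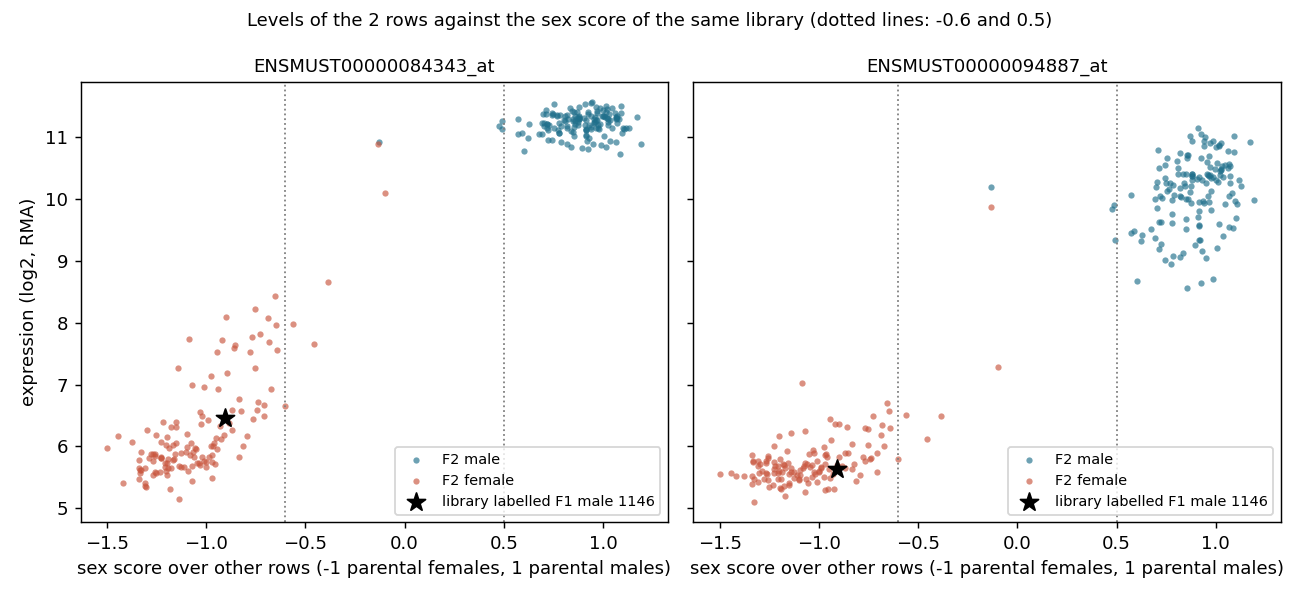
Level of each row (log2, RMA) against the sex score of the same library, in F2 males and F2 females, with the library labelled F1 male 1146 as a star and dotted lines at scores of -0.6 and 0.5. Levels of ENSMUST00000084343_at climb with the score among females (r = 0.79), and the star lies in the female cloud at both rows.

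The rows most like each one were sought over all rows after batch means were subtracted, as a description without a test. In both sexes the row most like each of the 2 was the other, with r of 0.85 in F2 males and 0.84 in F2 females. In F2 males the next were ENSMUST00000106618_at (r = 0.65 with ENSMUST00000084343_at and 0.62 with ENSMUST00000094887_at) and ENSMUST00000097922_at (0.64 and 0.62), which are near copies of each other on these arrays (r = 0.999 in males). The lowest was ENSMUST00000006562_at (-0.61 and -0.63).

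These followers in males differed by about 0.01 log2 units between the sexes. ENSMUST00000106618_at averaged 7.45 in F2 males and 7.46 in F2 females, with 7.76 in MRL and 6.93 in SM males. ENSMUST00000006562_at averaged 8.73 in F2 males and 8.74 in F2 females, with 8.52 in MRL and 8.78 in SM males. In F2 females their r with ENSMUST00000084343_at was 0.11 and -0.15.

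In F2 females the rows most like ENSMUST00000084343_at were ENSMUST00000089129_at (r = 0.74, and 0.59 without the 6 females with a score between) and ENSMUST00000106699_at (0.71 and 0.58). The lowest was ENSMUST00000031633_at (-0.74 and -0.71). ENSMUST00000089129_at averaged 11.95 in F2 males and 7.96 in F2 females, ENSMUST00000106699_at 12.63 in F2 males and 11.24 in F2 females, and ENSMUST00000031633_at 5.47 in F2 males and 9.59 in F2 females. The rows that went with it were thus male-high and the one that went against it female-high. Over all rows 35 had r over 0.5 and 35 under -0.5, which became 18 and 8 without the 6 females.

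For ENSMUST00000094887_at in F2 females the most like rows were ENSMUST00000077667_at (r = 0.80) and ENSMUST00000091190_at (0.71), and the lowest was ENSMUST00000026464_at (-0.56). Without the 6 females these were 0.42, 0.12 and -0.34, and the number of rows with r over 0.5 was 1 in place of 23. That 1 row was ENSMUST00000084343_at, with r = 0.78. The likeness of ENSMUST00000091190_at, which averaged 9.11 in F2 males and 5.98 in F2 females, rested on those libraries.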

How the data were processed

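The 300 livers were hybridised singly to Affymetrix Mouse Gene 1.0 ST arrays. The deposited log2 values, 1 per Ensembl transcript and array, come from RMA by the authors. The submitters' processing notes name R 2.11 and affy. RMA corrects background, quantile-normalizes and summarises probes, and probe sharing between transcripts and sequence differences between strains under a probe can both move a value. No source used here gives the genome build or Ensembl release.

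All 34406 rows were kept, and rows carry no gene names. The symbol lists and markers planned were not applied. The members, lists and tests were chosen with earlier results of these data known. Named rows are the members and, for each member and sex in F2, the 2 rows of highest and the 1 of lowest correlation after batch means were subtracted.

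limma 3.58.1 in R 4.3.3 (lmFit, eBayes) fitted 6 group means in 18 animals, with Benjamini-Hochberg adjustment over all rows and a threshold of 0.05. Correlations used 100000 permutations, two-sided, in Python 3.11.15. The procedure was tested on simulated data. Array number limits precision. Batch is the batch number of the labels.

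Alternatives were array centring, quantile normalization, a filter on row means, batch treatments, trend and robust options, a replicate block, only the compared groups, and leaving out each animal. After the data were seen, batch treatments with library 1146 left out were added.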

Additional observations from a re-analysis of the deposited data

Results flagged for a closer look

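The strain difference of ENSMUST00000094887_at was larger in males than in females by a test of the difference itself, once the library labelled F1 male 1146 was left out. The male minus female strain difference was 1.48 log2 units (limma adjusted p 5.28e-05), with MRL and SM means of 11.12 and 9.29 in males and 6.01 and 5.67 in females, 3 animals each. The low female levels cannot be told from background, and whether this limits the female strain difference was not tested. With all animals kept it did not pass in any setting (limma adjusted p 0.376 to 0.531). With 1146 left out, the adjusted p was 0.0026 with F2 batch effects subtracted and 0.372 with the F2 animals and batch in the fit. The error of the latter fit includes the F2 spread.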

How the results depend on the processing

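The sex difference in the 18 animals kept its direction and call for both rows in all settings, and with each animal left out it ran from 4.20 to 5.00 log2 units for ENSMUST00000084343_at and 3.73 to 4.54 for ENSMUST00000094887_at. In the other comparisons neither row passed with any of the other 17 animals left out, and some passed with library 1146 left out. Without 1146, ENSMUST00000084343_at still did not pass for strain in males or the difference between sexes (limma adjusted p 0.154 and 0.256). F1 males passed at neither row. Leaving out each animal gave, for ENSMUST00000094887_at and ENSMUST00000084343_at in turn, 1.78 to 1.89 and 0.46 to 0.56 (strain, males), 0.25 to 0.46 and 0.81 to 1.41 (strain, females), 1.37 to 1.57 and -0.89 to -0.29 (difference between sexes), -2.23 to 0.19 and -2.47 to -0.04 (F1, males), and -0.39 to -0.28 and -1.08 to -0.78 (F1, females).

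Calls gained elsewhere were the male strain difference of ENSMUST00000094887_at with all 300 animals and batch (1.83), with only the groups compared (1.83) and in both batch fits without 1146 (1.83 and 1.83). They were also the strain difference of ENSMUST00000084343_at with only the groups compared (0.52 in males, 1.08 in females) and with F2 batch effects subtracted and 1146 left out (1.18 in females). The last setting also gave 0.47 (strain, females) and 1.37 (difference between sexes) for ENSMUST00000094887_at. F1 against parental males turned sign for ENSMUST00000094887_at without 1146, to 0.19, and to 0.16 and 0.17 in the batch fits without it. These did not pass.

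Counts of called rows moved as follows. With each animal left out they ran from 2318 to 3723 (sex), 1233 to 2681 (strain, males), 1361 to 3406 (strain, females), 28 to 701 (difference between sexes), 2 to 50 (F1, males) and 21 to 3563 (F1, females), against 3109, 2225, 2761, 76, 9 and 958. Strain calls were 1139 (males) and 1501 (females) with all 300 animals and batch, and 1140 and 1490 there without 1146. For the difference between sexes they were 50 with the row filter, 25 with all 300 animals, 40 with the replicate block, 143 with F2 batch effects subtracted and 1146 left out, and 25 with the other animals and batch.

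For F1 males they were 4 (centring), 3 (row filter), 5 (F2 batch effects subtracted), 16 (random block), 5 (trend and robust), 3 (replicate block), 2 (F2 batch effects, no 1146) and 0 (all animals with batch in limma, no 1146, with 809 at an unadjusted p under 0.05). For F1 females they were 1442 (centring), 37 (quantile normalization), 422 (row filter), 406 (F2 batch effects), 1867 (random block), 66 (replicate block), and 0 with all animals and batch in limma, with or without 1146 (7727 and 7702 unadjusted). MRL and SM animals share numbers 1 to 3 in females and 6 to 8 in males. Deviations of same-numbered animals correlated from -0.08 to 0.22 and not over 0.1 in every pair, so the numbers were not taken as pairs, and the replicate block changed no call on the members.

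Among correlations, ENSMUST00000094887_at with the array SD in males passed after centring (0.20). There the r of ENSMUST00000084343_at with the array SD in males rose from 0.30 to 0.41. In females ENSMUST00000084343_at with the array SD became 0.055 without the libraries between. In that setting the difference of the member correlations, 0.084, had an unadjusted permutation p of 0.0498, very near the threshold. In all other settings the permutation p of that difference was 0.728 or more. The cause of these changes was not tested.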
